A study of Homo sapiens with 6 samples.

Results

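Protein phosphatase 2A (PP2A) is a serine/threonine phosphatase built from a catalytic C subunit, a scaffold A subunit and 1 regulatory B subunit. The 10 genes described here encode both catalytic isoforms (PPP2CA and PPP2CB), both scaffold isoforms (PPP2R1A and PPP2R1B), the regulatory B55 alpha subunit (PPP2R2A) and the regulatory B56 subunits alpha to epsilon (PPP2R5A to PPP2R5E). They were taken by gene symbol from a table of 58938 entries, where each symbol had 1 row. The cells were HCT116, an established human colorectal cancer line. The 3 MST3 libraries came from HCT116 cells transfected with an expression plasmid for MST3, a GCKIII-family kinase encoded by STK24, and the 3 vector libraries came from HCT116 cells that the labels call vector and wild type in genotype. By the labels, plasmid went in with a lipid reagent at 60% density, fresh medium was given at 6 hours, and cells were lysed for RNA at 30 hours. The labels name only the overexpression plasmid in this step and do not say whether vector cells were given a plasmid. The share of cells that took up plasmid is not known here. Libraries are numbered 1 to 3 in each group, and nothing says that the numbers stand for separate cultures. The p-values therefore reflect spread among these libraries alone, and that spread may be technical.

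In the PP2A holoenzyme the A subunit is a curved repeat protein that holds the C subunit at one end and the B subunit at the other, and the B subunit chooses the substrates. The catalytic and scaffold isoforms are close paralogs, with the alpha form the more abundant in most tissues. Striatins are a further class of B subunit, and through the STRIPAK complex they bring PP2A to the GCKIII kinases, MST3 among them, and to the Hippo kinases MST1 and MST2. Dephosphorylation of MST1 and MST2 by STRIPAK lowers Hippo signalling and favours YAP, the transcriptional coactivator named in the series title. PPP2R1B and PPP2R1A are both mutated in human tumours, and PP2A is widely described as a tumour suppressor.

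Values are FPKM, fragments per kilobase of gene scaled for each library by the authors. Read totals, recovered from the steps between low values, were 15289213 to 17209736 in MST3 libraries and 17296201 to 17708029 in vector libraries. STK24 had 63.7, 72.2 and 76.0 FPKM in MST3 libraries 1 to 3, against 17.1, 17.4 and 17.4 FPKM in vector libraries 1 to 3 (limma adjusted p = 0.000998), so its level matched the labels in all 6 libraries. Of the 7 colorectal epithelial markers, 6 averaged at least 1 FPKM, and their summed level was 1530 to 1939 FPKM in MST3 libraries and 1614 to 1664 FPKM in vector libraries. VIL1, which encodes villin, was the one near 0. The 5 leukocyte, endothelial and fibroblast markers summed to 5.43 to 6.18 FPKM in MST3 libraries and 4.81 to 5.70 FPKM in vector libraries, and 2 of them averaged at least 1 FPKM. COL1A1, a fibroblast collagen gene, averaged 4.35 FPKM in MST3 and 4.16 FPKM in vector libraries and ACTA2 1.34 FPKM in MST3 and 1.13 FPKM in vector libraries, while PTPRC, PECAM1 and COL1A2 were at or near 0. The part of these markers in the results was not tested. MST3 replicate 1 stood apart in having the fewest reads, 15289213, where the other 5 libraries had 17178700 to 17708029. It also had reads on the most genes, 27442, where the other 5 had 25099 to 25501. The difference of each subunit is therefore also given without MST3 replicate 1.

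Promoter sequence is shown for 3 of the genes: PPP2CA and PPP2R5D, whose MST3 and vector values did not overlap, and PPP2R1A, whose mean hardly differed between the groups but whose MST3 values were the most scattered. RefSeq promoters on GRCh38.p14 were matched by symbol for 8 of the 10 genes, all but PPP2CB and PPP2R2A. Each sequence runs 5′ to 3′ on the strand of the gene and covers the stretch before the RefSeq start that holds no annotated exon. Capitals mark the GC box GGGCGG, which SP1-type factors bind, and the CCAAT box CCAAT, which NF-Y binds, read on either strand. The RefSeq start lies 588 bases inside the PPP2CA gene of the table, so the PPP2CA stretch is within the gene coordinates given further on. RefSeq and table starts differ by 7136 bases for PPP2R5B and 1225 bases for PPP2R5C, and by at most 127 bases for the other 5. The PPP2CA stretch lies on the minus strand at chr5:134225555-134225756, the PPP2R1A stretch on the plus strand at chr19:52189802-52190038 and the PPP2R5D stretch on the plus strand at chr6:42984320-42984498.
PPP2CA: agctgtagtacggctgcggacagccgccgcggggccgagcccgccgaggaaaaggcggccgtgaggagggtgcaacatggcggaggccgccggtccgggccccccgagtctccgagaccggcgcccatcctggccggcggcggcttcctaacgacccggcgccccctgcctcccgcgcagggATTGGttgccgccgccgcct
PPP2R1A: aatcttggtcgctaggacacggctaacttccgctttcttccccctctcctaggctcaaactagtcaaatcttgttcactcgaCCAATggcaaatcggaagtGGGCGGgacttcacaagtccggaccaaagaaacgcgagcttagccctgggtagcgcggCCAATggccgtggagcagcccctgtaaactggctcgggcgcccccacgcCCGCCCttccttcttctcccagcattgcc
PPP2R5D: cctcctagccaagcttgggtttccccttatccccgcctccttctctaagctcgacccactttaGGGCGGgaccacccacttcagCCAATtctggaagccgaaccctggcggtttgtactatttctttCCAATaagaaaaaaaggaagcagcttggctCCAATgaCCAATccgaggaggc

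The PPP2CA promoter was the richest in G and C of the 8, at 73.2% over the 250 bases before its start, and PPP2R5D the poorest at 56.8%. The median over all 35116 RefSeq promoters was 58%. A GC box was found in 7 of the 8 windows, that of PPP2CA being the one without, and in 42.6% of all promoters. The PPP2CA and PPP2R5B windows lie inside the genes of the table, so the bases before the starts of those genes were not searched. CCAAT was found in 6 of the 8 and in 32% of all promoters. The PPP2R5D promoter held 6 CCAAT matches, of which 4 lie in the stretch printed and 1 pair overlaps. The letters GGAATG, which TEAD factors recognise and through which YAP acts, were found in none of these 8 windows and in 11.9% of all promoters. The full cAMP response element TGACGTCA (1.65% of all promoters), the ETS letters CCGGAAG (8.52%) and the E box CACGTG (6.34%) were likewise found in none of the 8 windows. These are letter matches in a window and not measured binding.

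Setting MST3 libraries against vector libraries asks whether raising the kinase moved the mRNAs of the phosphatase that acts on it. No PP2A subunit mRNA passed the test over all genes. The mean was lower in the MST3 libraries for 9 of the 10, beside 53.4% of all genes tested with a log2 difference under 0. The amounts were small, with PPP2CA the furthest down and PPP2R5B the one higher. The count of lower subunits was 8 by limma voom, when scaled by total reads, with the trend of each library with gene length removed, and without MST3 replicate 1. PPP2R1A changed sign in these. Limma was run on log2(FPKM + 1) for 13036 genes that averaged 1 FPKM or more, which all 10 subunits did. The threshold was a Benjamini-Hochberg adjusted p of 0.05 over all of them. Among the subunits 0 of 10 passed, and over all genes the share called was 0.00767%, which is STK24 alone. At an unadjusted p under 0.05, 1 of 10 subunits was counted (PPP2CA, lower), beside 5.38% of all genes in either direction, 1.86% in the lower and 3.51% in the higher direction. Limma voom on the recovered reads also gave 0 of 10 adjusted and 1 of 10 unadjusted, beside 6.65% of all genes unadjusted.

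**Figure D1:**
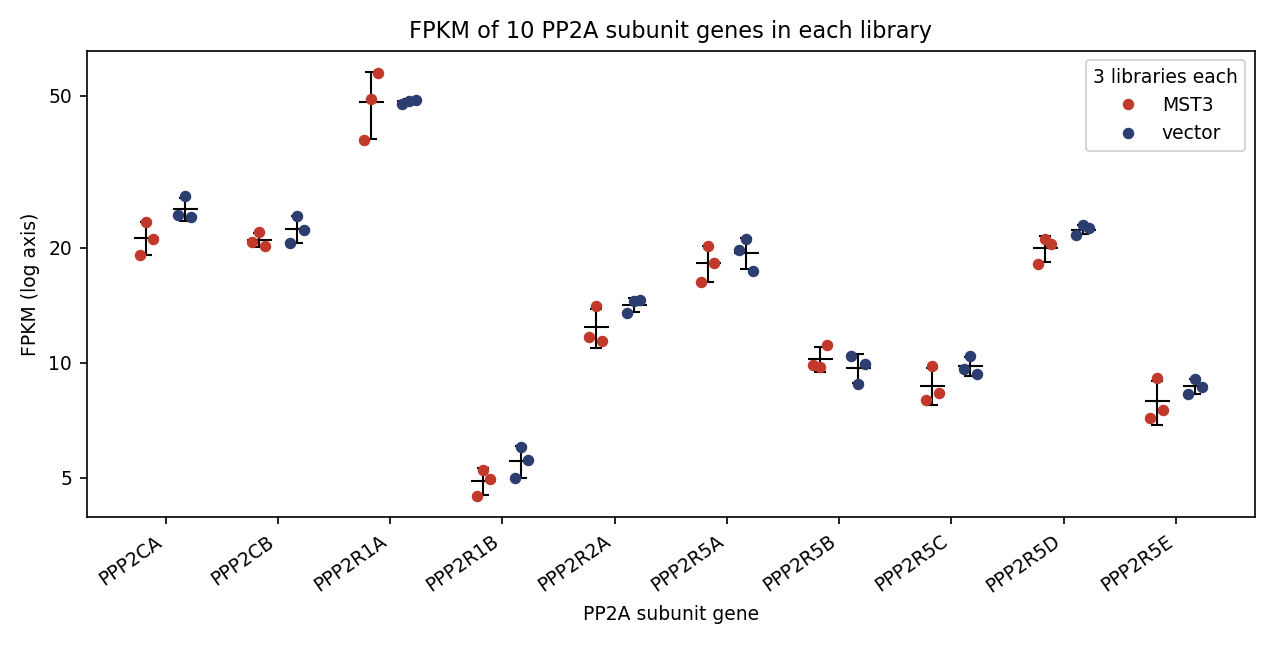
FPKM of the 10 PP2A subunit genes on a log axis, with 1 point per library (MST3 red, vector blue), the mean as a dash and the SD as bars (3 libraries per group). PPP2R1A stands highest and PPP2R1B lowest in every library, and only PPP2CA and PPP2R5D have MST3 points that all lie below their vector points.

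The catalytic subunit PPP2CA carries the phosphatase active site and is encoded by a gene on chromosome 5 (ENSG00000113575; 134194334 to 134226142, minus strand, GRCh38). Its mRNA had 19.1, 23.3 and 21.1 FPKM in MST3 libraries 1 to 3, against 24.3, 27.2 and 24 FPKM in vector libraries 1 to 3. Every MST3 value lay under every vector value, and the highest MST3 value (replicate 2) lay 3.05% under the lowest vector value. The means were 21.2 ± 2.10 FPKM in MST3 and 25.2 ± 1.78 FPKM in vector libraries (SD, n = 3 each), a ratio of 0.841. MST3 minus vector was -0.24 in log2(FPKM + 1), with SE 0.10 and a 95% interval of -0.48 to -0.01, and limma gave an adjusted p = 0.719. A two-sided exact permutation test gave p = 0.1, below which a comparison of 3 with 3 cannot go. Groups of 3 that do not overlap always give this value, so it adds nothing to that separation. In bulk RNA, fewer cells with the transcript and less of it per cell cannot be told apart.

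PPP2CB, the beta catalytic isoform, is encoded on chromosome 8 (ENSG00000104695; 30774457 to 30814314, minus strand). It had 20.8, 22 and 20.2 FPKM in MST3 libraries, against 20.5, 24.2 and 22.3 FPKM in vector libraries. Those ranges overlapped, and the log2 difference was -0.08 with a 95% interval of -0.29 to 0.13 (limma adjusted p = 0.776). With MST3 replicate 1 left out it was -0.08, and with vector replicate 2 left out it was -0.03. The ratio of PPP2CA to PPP2CB FPKM was 0.922, 1.06 and 1.04 in MST3 libraries 1 to 3, against 1.18, 1.13 and 1.08 in vector libraries 1 to 3. The alpha form was thus 48.0 to 51.5% of the summed catalytic FPKM in MST3 libraries and 51.9 to 54.2% in vector libraries, ranges that did not overlap. Between MST3 replicate 2 and vector replicate 3 the gap was 0.386 percentage points, and the ratio was chosen after its values were seen, so it has no test. No 50-base word of a PPP2CA transcript in GENCODE 29 occurred in a PPP2CB transcript. Of the PPP2CA words 7.82% occurred in transcripts of other genes, mainly of AC104109.3 and AC104109.4, which overlap PPP2CA on its own strand and averaged 0 and 0.268 FPKM.

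PPP2R1A, the alpha scaffold, on which the catalytic and regulatory subunits assemble (ENSG00000105568; chromosome 19, 52190039 to 52229533, plus strand), was the highest of the subunits. It had 38.2, 48.8 and 57.2 FPKM in MST3 libraries 1 to 3, against 47.6, 48.5 and 48.8 FPKM in vector libraries 1 to 3. The MST3 libraries held both the lowest and the highest of the 6 values, with the vector libraries close together between them. Means were 48.1 ± 9.55 FPKM in MST3 and 48.3 ± 0.639 FPKM in vector libraries (SD, n = 3 each). The coefficient of variation was 19.9% in MST3 and 1.32% in vector libraries, and its median over all genes tested was 13.6% in MST3 and 7.25% in vector libraries. Counting error was 1.17 to 1.49% for this gene, which had 4530 to 7296 reads per library. The log2 difference was -0.02 with a 95% interval of -0.36 to 0.31 (limma adjusted p = 0.965), and 0.13 without MST3 replicate 1.

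PPP2R1B, the beta scaffold (ENSG00000137713; chromosome 11, 111726908 to 111766427, minus strand), was the lowest of the subunits. It had 4.48, 5.26 and 4.97 FPKM in MST3 libraries, against 4.99, 6.03 and 5.57 FPKM in vector libraries, and the ranges overlapped. The log2 difference was -0.14, with a 95% interval of -0.36 to 0.07 (limma adjusted p = 0.719), and it was -0.09 with MST3 replicate 1 left out. The alpha scaffold stood 8.53 to 11.5 times above the beta scaffold in MST3 libraries and 8.05 to 9.54 times in vector libraries. Summed scaffold FPKM per summed catalytic FPKM was 1.07, 1.19 and 1.5 in MST3 libraries 1 to 3, against 1.17, 1.06 and 1.17 in vector libraries 1 to 3, so the high value was that of MST3 replicate 3.

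PPP2R2A encodes B55 alpha, a regulatory subunit that directs PP2A to CDK substrates at mitotic exit (ENSG00000221914; chromosome 8, 26291491 to 26372680, plus strand). Its mRNA had 11.7, 14.0 and 11.4 FPKM in MST3 libraries, against 13.5, 14.5 and 14.6 FPKM in vector libraries. MST3 replicates 1 and 3 lay below every vector library, while replicate 2 lay within the vector range. The means were 12.4 ± 1.45 FPKM in MST3 and 14.2 ± 0.590 FPKM in vector libraries (SD, n = 3 each). The log2 difference was -0.19, with a 95% interval of -0.42 to 0.04 (limma adjusted p = 0.719), and -0.15 with MST3 replicate 1 left out.

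Among the B56 subunits PPP2R5D and PPP2R5A had the highest mean FPKM and PPP2R5E the lowest. FPKM divides reads by annotated exon length, which is 3314 bases for PPP2R5D and 14289 bases for PPP2R5C. By reads the order of these 2 was the other way, with 961 to 1299 per library for PPP2R5D and 1820 to 2554 for PPP2R5C. PPP2R5D, the delta form, found in nucleus and cytoplasm (ENSG00000112640; chromosome 6, 42984499 to 43012342, plus strand), had 18.2, 21.1 and 20.5 FPKM in MST3 libraries, against 21.6, 22.9 and 22.5 FPKM in vector libraries. All 3 MST3 values lay below all 3 vector values. The means were 19.9 ± 1.54 FPKM in MST3 and 22.3 ± 0.649 FPKM in vector libraries (SD, n = 3 each), a ratio of 0.893. MST3 minus vector was -0.16 in log2(FPKM + 1), with SE 0.09 and a 95% interval of -0.36 to 0.04, and -0.10 when MST3 replicate 1 was left out. Limma gave an adjusted p = 0.719. The exact permutation test gave p = 0.1, again the smallest possible and fixed by the lack of overlap. Its exons overlap 1194 bases, or 36.0% of its length, with MEA1 on the opposite strand. MEA1 had 17.7, 10.1 and 10.3 FPKM in MST3 libraries, against 9.88, 7.06 and 11 FPKM in vector libraries, and since the strand setting of the counting is not known here, reads of this pair may not have been kept apart.

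Across the subunits, groups that did not overlap were found for 2 of 10 in the lower direction (PPP2CA and PPP2R5D) and 0 of 10 in the higher, beside 6.7% of all genes lower and 5.19% higher. PPP2R5A, the alpha form, which acts on MYC and at the centromere, had 16.3, 20.2 and 18.2 FPKM in MST3 libraries, against 19.7, 21.1 and 17.4 FPKM in vector libraries. Its log2 difference was -0.09 (95% interval -0.35 to 0.17). PPP2R5C, the gamma form, linked to dephosphorylation of p53, had 7.99, 9.81 and 8.36 FPKM in MST3 libraries, against 9.65, 10.4 and 9.36 FPKM in vector libraries. Its log2 difference was -0.16 (95% interval -0.38 to 0.07). Both ranges overlapped, through MST3 replicate 2 for PPP2R5C.

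PPP2R5E, the epsilon form, had 7.15, 9.11 and 7.51 FPKM in MST3 libraries, against 8.28, 9.07 and 8.66 FPKM in vector libraries. MST3 replicate 2 held the highest of the 6 values, and the other MST3 values the lowest, with a log2 difference of -0.12 (95% interval -0.36 to 0.11). PPP2R5B, the beta form, was the exception in direction, with 9.84, 9.77 and 11.1 FPKM in MST3 libraries, against 10.4, 8.80 and 9.91 FPKM in vector libraries. Its log2 difference was 0.07 (95% interval -0.15 to 0.29), with overlapping groups. The adjusted p by limma was 0.719 to 0.816 for these 4 B56 genes. With MST3 replicate 1 left out, the log2 difference was -0.01 for PPP2R5A, -0.10 for PPP2R5C, -0.06 for PPP2R5E and 0.10 for PPP2R5B. With vector replicate 2 left out it was -0.03 for PPP2R5A and 0.01 for PPP2R5B, and that of PPP2R5B was 0.01 with MST3 replicate 3 left out. Over the 10 subunits the 95% intervals reached no lower than -0.48 (PPP2CA) and no higher than 0.31 (PPP2R1A).

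**Figure D2:**
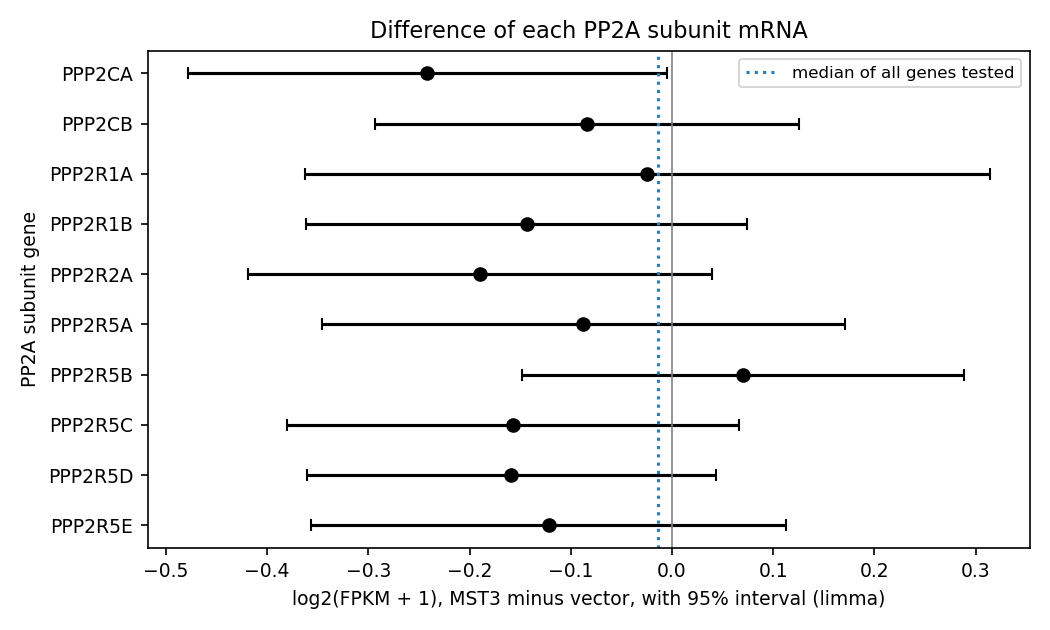
Difference in log2(FPKM + 1), MST3 minus vector, for each PP2A subunit, with its 95% interval from limma. All points but that of PPP2R5B lie left of 0 (that of PPP2R1A changed side under 4 alternatives), and only the interval of PPP2CA (-0.48 to -0.01) does not include 0. The dotted line is the median of all genes tested (-0.01).

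By FPKM, PPP2R5D and PPP2R5A were the first and second of the B56 genes in every library, and the share of PPP2R5B varied most for its size. PPP2R5D made up 30.2 to 31.2% of the summed B56 FPKM in MST3 libraries and 31.0 to 33.1% in vector libraries. PPP2R5A made up 27.4 to 28.8% in MST3 libraries and 25.7 to 29.2% in vector libraries. The shares of PPP2R5B were 14 to 17% in MST3 libraries and 12.2 to 15.0% in vector libraries, those of PPP2R5C 12.7 to 14.02% in MST3 and 13.8 to 14.4% in vector libraries, and those of PPP2R5E 11.4 to 13.02% in MST3 and 11.9 to 12.8% in vector libraries, each with overlapping ranges. The summed B56 FPKM was 59.5, 70.0 and 65.6 in MST3 libraries 1 to 3, against 69.7, 72.3 and 67.8 in vector libraries 1 to 3. The shares were not tested. They are of mRNA per kilobase of annotated exon, so they depend on that length, and not of protein.

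**Figure D3:**
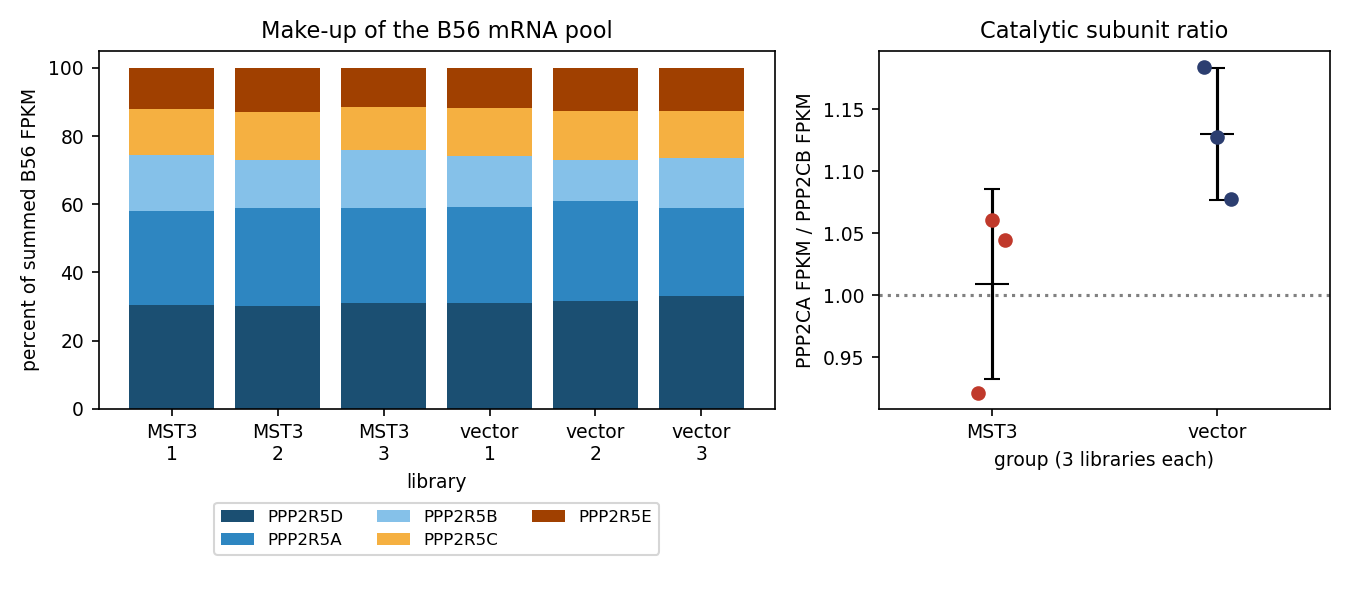
Left, share of each B56 gene in the summed B56 FPKM of each library, in percent. Right, ratio of PPP2CA to PPP2CB FPKM per library (points), with the mean and SD of 3 libraries per group. The share of PPP2R5B runs over 14 to 17% in MST3 and 12.2 to 15.0% in vector libraries, and the 3 MST3 ratios (0.922 to 1.06) lie below the 3 vector ratios (1.08 to 1.18).

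By mean FPKM over the 6 libraries the order was PPP2R1A (48.2 ± 6.05), PPP2CA (23.2 ± 2.80), PPP2CB (21.7 ± 1.48), PPP2R5D (21.1 ± 1.68), PPP2R5A (18.8 ± 1.82), PPP2R2A (13.3 ± 1.41), PPP2R5B (9.98 ± 0.776), PPP2R5C (9.27 ± 0.924), PPP2R5E (8.30 ± 0.817) and PPP2R1B (5.22 ± 0.536; SD over 6 libraries). The first was 9.24 times the last. Some neighbours in this order were not separated by their spread. PPP2CA exceeded PPP2CB in 5 of 6 libraries, PPP2CB exceeded PPP2R5D in 3 of 6 and PPP2R5B exceeded PPP2R5C in 4 of 6. Every other neighbour pair kept its order in 6 of 6 libraries, although the 6-library ranges of PPP2R5D and PPP2R5A, and of PPP2R5C and PPP2R5E, overlapped. PPP2R1A ranked above 94.4% of the genes tested and PPP2R1B above 46.5%. The fewest reads behind any of these values were 480, for PPP2R1B, where counting error alone is 4.56%.

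The libraries differed within each group in the same way for most subunits. MST3 replicate 1 held the lowest of the 6 values for 7 of the 10 subunits, beside 27.4% of all genes tested. Vector replicate 2 held the highest for 6 of 10, beside 23.6% of all genes. The median deviation of the subunits from their 6-library mean, in log2(FPKM + 1), was -0.19, 0.03 and -0.07 in MST3 libraries 1 to 3, against 0.03, 0.14 and 0.05 in vector libraries 1 to 3. Over all genes tested these medians lay between -0.03 and 0.01. The medians of MST3 replicate 2 and vector replicate 1 were alike.

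**Figure D4:**
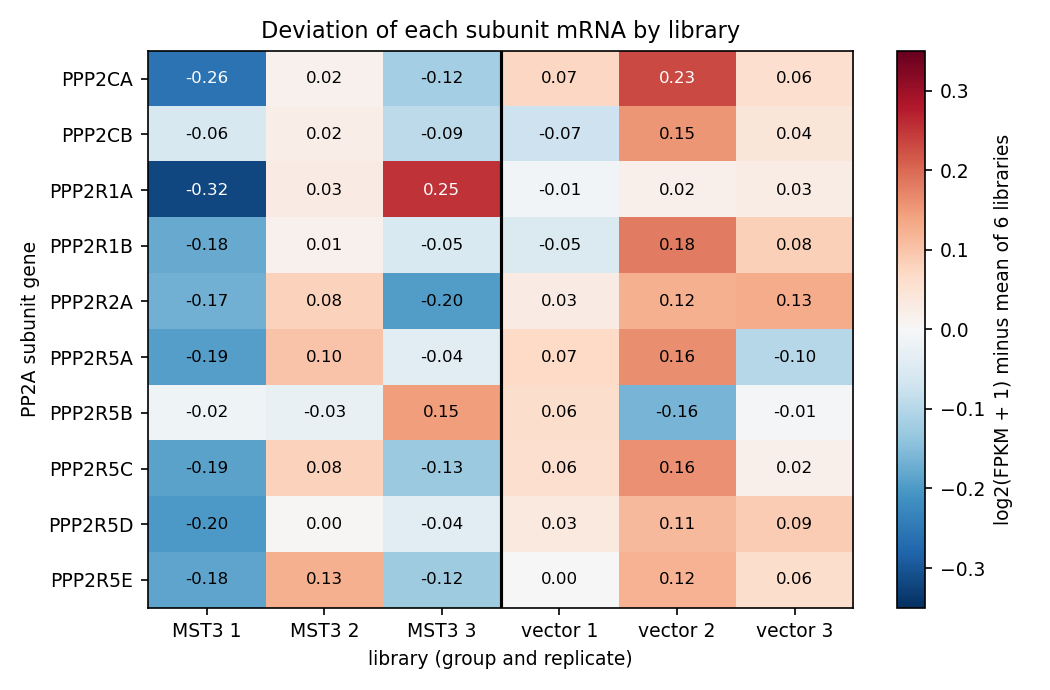
Log2(FPKM + 1) of each PP2A subunit in each library minus its mean over the 6 libraries. Columns left of the line are MST3 libraries and columns right of it are vector libraries. MST3 replicate 1 is below 0 for all 10 genes, vector replicate 2 is above 0 for all but PPP2R5B, and PPP2R1A spans -0.32 to 0.25 within the MST3 libraries.

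The median log2 difference of the 10 subunits was -0.13, beside -0.01 over all genes tested. Leaving out MST3 replicate 1 gave -0.08, leaving out vector replicate 2 gave -0.09, and removing each library's trend with gene length gave -0.09. Without MST3 replicate 2 it was -0.19, where 4 subunits (PPP2CA, PPP2R2A, PPP2R5C and PPP2R5E) had an unadjusted p under 0.05, beside 19.6% of all genes in that fit, and none passed after adjustment. PPP2CA had an unadjusted p of 0.0462 by limma with all 6 libraries and 0.118 without MST3 replicate 1. Its log2 difference was -0.17 without that replicate.

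The other B subunits, among them the striatins that form STRIPAK, did not share one direction. Of 9 such genes 7 were tested, with 4 higher, 3 lower, 0 called and a median log2 difference of 0.01, beside 53.4% of all genes lower. That median was -0.05 to 0.07 with 1 library left out, the highest without MST3 replicate 1 and the lowest without vector replicate 1. PPP2R2C, a further B55 form (gamma), had 6.24, 7.97 and 7.73 FPKM in MST3 libraries, against 8.08, 8.40 and 8.62 FPKM in vector libraries, groups that did not overlap (log2 difference -0.18, limma adjusted p = 0.719). PPP2R3A, of the calcium-binding B″ class, averaged 2.48 FPKM in MST3 and 2.87 FPKM in vector libraries (log2 difference -0.17). The striatins averaged 16.8 (STRN4), 11 (STRN3) and 8.18 (STRN) FPKM in MST3 libraries, against 15.5, 10.6 and 8.62 FPKM in vector libraries. STRN and STRN3 fall outside the naming rule and were picked with their values known. PPP2R2B, the B55 form of brain, was at 0 in 5 of 6 libraries, and PPP2R3B was below the level tested.

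Among 13 genes that assemble, methylate or inhibit PP2A, all were tested and 0 were called, with 4 higher, 9 lower and a median log2 difference of -0.03. That median was -0.09 with the gene length trend removed, 0.0011 by limma voom and 0.0014 when scaled by total reads, and -0.06 to -0.03 with 1 library left out. Groups did not overlap, in the lower direction, for 4 of the 13 (LCMT1, MASTL, ARPP19 and PPME1), beside 6.7% of all genes. LCMT1, the methyltransferase that methylates the C-terminal leucine of the catalytic subunit, had 12, 13.7 and 11.9 FPKM in MST3 libraries, against 14.2, 14.9 and 15.1 FPKM in vector libraries (log2 difference -0.22, 95% interval -0.42 to -0.02). MASTL, the Greatwall kinase, which turns ARPP19 and ENSA into inhibitors of PP2A-B55, had 7.08, 6.53 and 6.31 FPKM in MST3 libraries, against 7.35, 7.86 and 8.11 FPKM in vector libraries (log2 difference -0.20, 95% interval -0.38 to -0.02). ARPP19 had 25.5, 28.7 and 25.3 FPKM in MST3 libraries, against 29, 31 and 28.9 FPKM in vector libraries (log2 difference -0.16). PPME1, the esterase that reverses LCMT1, averaged 14.5 FPKM in MST3 and 16.3 FPKM in vector libraries (picked, outside the naming rule, with its values known). The limma adjusted p was 0.719 for each of the 4. ENSA had 22.9, 19.1 and 16.5 FPKM in MST3 libraries, against 16.7, 16.04 and 18.4 FPKM in vector libraries, so its log2 difference lay the other way from that of ARPP19, at 0.18 with overlapping groups. PTPA, which activates PP2A as a prolyl isomerase, had 25.2, 20.5 and 25.2 FPKM in MST3 libraries, against 21.6, 18.8 and 21.2 FPKM in vector libraries, again overlapping (log2 difference 0.19). The naming rule did not take ENSA and PTPA, and they were picked with their values known.

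The other catalytic subunits of the PPP family, to which PP2A belongs, gave 3 higher and 6 lower of 9 tested, 0 called, with a median log2 difference of -0.10. PPP6C, the catalytic subunit of PP6, had 12.7, 16.8 and 14.1 FPKM in MST3 libraries, against 16.2, 18.5 and 17.1 FPKM in vector libraries. Its log2 difference was -0.24, as large as that of PPP2CA, but its groups overlapped through MST3 replicate 2. PPP4C, the catalytic subunit of PP4, lay the other way, with 50.4, 41.1 and 56 FPKM in MST3 libraries, against 44.0, 41.7 and 43.5 FPKM in vector libraries (log2 difference 0.17). PPP3CB, a calcineurin catalytic subunit, averaged 11.7 FPKM in MST3 and 13.0 FPKM in vector libraries (log2 difference -0.15). The limma adjusted p was 0.719 to 0.726 for these 3.

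**Figure D5:**
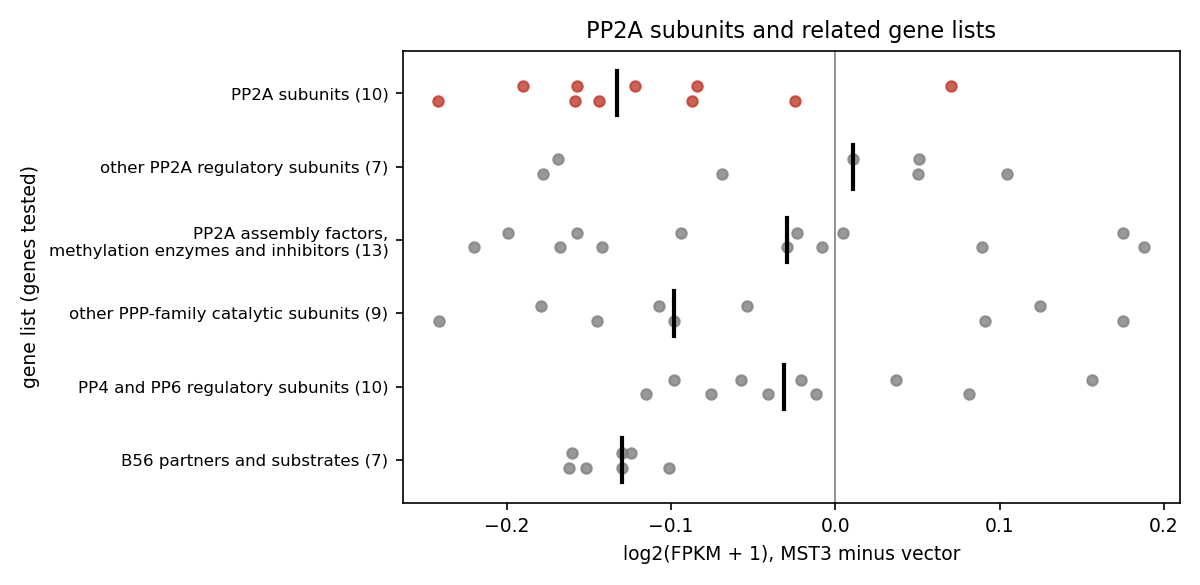
Difference in log2(FPKM + 1), MST3 minus vector, for every tested gene of the PP2A subunits (red) and of 5 related lists (grey), with the median of each list as a vertical bar. The medians run from -0.13 for the PP2A subunits and the B56 partners to 0.01 for the other regulatory subunits, and no gene shown passed the test over all genes.

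The genes whose pattern over the 6 libraries was most like that of PPP2CA were ATP6V1A, a subunit of the vacuolar proton pump, TGFA, a ligand of the EGF receptor, and WASF1, a regulator of actin. Their centred log2(FPKM + 1) profiles differed from that of PPP2CA by a root mean square of 0.020, 0.021 and 0.022, where the median gene differed by 0.191. For PPP2CB they were ALKBH8, RUNX2 and TRIM5, at 0.015, 0.018 and 0.020, against a median of 0.146. These 3 genes were low, at 3.02 to 3.81, 1.46 to 1.93 and 5.33 to 6.56 FPKM, against 20.2 to 24.2 FPKM for PPP2CB. Since log2(FPKM + 1) understates fold changes of low genes, their likeness holds on that scale and need not hold in fold. With 6 libraries and 13036 genes such near matches are a description only.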

How the data were processed

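RNA of 6 HCT116 libraries was sequenced. The authors deposited 1 table of FPKM values with 1 column per library, and HISAT2 is a tool named per the submitters' processing notes. For its version and for the counter, strand setting, build and annotation, the sources used here give nothing. All 58735 Ensembl entries of the table have the coordinates of GENCODE 29 on GRCh38. FPKM times gene length was a whole multiple of 1 step in 100% of values (tolerance 0.01), which gave reads. Median-of-ratios factors of the deposited values were 1.005 in each of the 6 libraries, so that alternative leaves the values as they are.

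For the test, log2(FPKM + 1) of genes averaging 1 FPKM or more went into limma 3.58.1 (R 4.3.3; lmFit, eBayes with an intensity trend), two-sided, with Benjamini-Hochberg adjustment over all 13036 and a threshold of 0.05. This scale understates fold changes of low genes. Exact permutation tests used scipy 1.17.1. The fit was tested on simulated data. Replicate numbers were not used as pairs. Members and lists were chosen with earlier results of these data known. The naming rule took all 10 subunits, STK24, up to 3 tested genes with the smallest p from each related list, and 3 nearest profiles for PPP2CA and PPP2CB. Counting errors cover counting alone.

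Alternatives were the pseudocount (0.1), the filter (none, or a mean of 5 FPKM), scaling, no intensity trend, the replicate number as a block, a fit with the gene length trend of every library taken out (natural spline, 3 degrees of freedom), limma voom on reads, and each library left out. Scaling by total reads was added after seeing the data, and limma voom used the same read totals. Shared sequence was counted as 50-base words of GENCODE 29 transcripts. Tables used pandas 2.3.3 and numpy 2.4.6 in Python 3.11.15, and plots matplotlib 3.10.9.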

Additional observations from a re-analysis of the deposited data

How the results depend on the processing

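Under the 15 alternatives 0 of 10 PP2A subunits passed after adjustment and STK24 was the 1 gene called in each. Of 150 subunit values under alternatives, 146 kept their direction, the smallest adjusted p being 0.214. The filters, the fit with no intensity trend, the replicate block and median-of-ratios scaling leave the log2 difference as it was. Their values are among the 146 and could not change direction. The 4 reversals were all of PPP2R1A, with a log2 difference of 0.0072 by limma voom, 0.0081 when scaled by total reads, 0.023 with the length trend removed and, with 1 library left out, -0.157 to 0.129, the highest without MST3 replicate 1. The count of subunits at an unadjusted p under 0.05 was 0 with no intensity trend and 0 when scaled by total reads, and 0 to 4 with 1 library left out, 4 being without MST3 replicate 2 and 0 without each of the other 5. The median log2 difference of the subunits was -0.193 to -0.0838 with 1 library left out. Limma voom was also scaled by total reads, so it and the fit scaled by total reads are not separate checks of the scaling. Scaling by total reads moved the median of all genes from -0.01 to 0.01 and that of the subunits to -0.10. The cause of these changes was not tested. With the replicate block 1 subunit, PPP2CA, had an unadjusted p under 0.05, where 1338 genes did against 701 without it. Deviations of same-numbered MST3 and vector libraries correlated at 0.016, 0.226 and 0.035. Those of differently numbered libraries correlated at -0.148 to 0.122. Whether the numbers mark pairs is not known here. The block changed no call.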

Other observations

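Genes that work with or under the B56 subunits lay lower in the MST3 libraries as a list, without a call. All 7 were tested, 0 were higher, 7 lower and 0 called, beside 53.4% of all genes lower. The median log2 difference was -0.13, beside -0.01 over all genes, and 0 of 7 had groups that did not overlap. RACGAP1, a cytokinesis regulator, had 32.7, 38.0 and 34.7 FPKM in MST3 libraries, against 38.7, 42.8 and 36.9 FPKM in vector libraries (log2 difference -0.16). FOXO3, a forkhead transcription factor, averaged 18.9 FPKM in MST3 and 21.0 FPKM in vector libraries (log2 difference -0.15), and KIF4A, a chromosome-bound kinesin, 16.7 FPKM in MST3 and 18.2 FPKM in vector libraries (log2 difference -0.12). The median of this list was -0.19 to -0.08 with 1 library left out. MST3 replicate 1 held the lowest value for 4 of the 7. The median deviation of the list from the 6-library mean was -0.18, 0.04 and -0.10 in MST3 libraries 1 to 3, against 0.02, 0.16 and 0.04 in vector libraries 1 to 3. MYC (picked, outside the naming rule, with its values known) had its highest value, 119 FPKM, in MST3 replicate 3 and its lowest, 79.5 FPKM, in MST3 replicate 1 (log2 difference -0.16).

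The regulatory subunits of PP4 and PP6, sister phosphatases of PP2A, had 3 higher, 7 lower and 0 called of 10 tested, with a median log2 difference of -0.03 that was -0.09 to 0.01 with 1 library left out. PPP6R2 averaged 16 FPKM in MST3 and 14.2 FPKM in vector libraries (log2 difference 0.16), PPP4R1 8.38 FPKM in MST3 and 9.17 FPKM in vector libraries (-0.11), and ANKRD28, which binds PP6 regulatory subunits, 5.80 FPKM in MST3 and 6.15 FPKM in vector libraries (-0.08). The limma adjusted p was 0.719 or higher for every gene of both lists.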
